A study of Rattus norvegicus with 46 samples.

Results

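The genes of the collagen-rich fibrotic scar followed here in rat brain after experimental stroke were *Col1a1*, *Col1a2* and *Col3a1*, which encode fibrillar collagen chains, *Fn1* (fibronectin), *Dcn* (decorin), *Lox* (lysyl oxidase) and *Acta2* (smooth muscle alpha actin). They are 7 of the 30452 Ensembl gene IDs in the count tables and were picked by ID, in that order: ENSRNOG00000003897, ENSRNOG00000011292, ENSRNOG00000003357, ENSRNOG00000014288, ENSRNOG00000004554, ENSRNOG00000014426 and ENSRNOG00000058039. The names are those given with the rule that lists the IDs; the files pair no ID with a name, and the gene table at hand matched 0 of them. All 7 passed the filter on low counts in each of the 5 comparisons made.

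The samples were 46 brain RNA libraries from male Wistar rats aged 3 months. Intact brain was taken on a standard diet (n = 8) or a ketogenic diet (n = 8), and lesion tissue was taken 14 days after MCAO, the occlusion of the middle cerebral artery that serves to model ischemic stroke, on the standard (n = 11) or ketogenic diet (n = 19). The standard diet, called ad libitum in the sample labels, supplied 3227 kcal/kg, with 11% of the energy as fat, 24% as protein and 65% as carbohydrate. The ketogenic diet supplied 6431 kcal/kg, with 84% as fat, 11% as protein and 5% as carbohydrate. Feeding lasted 2 months before MCAO and 2 more weeks after it. Whether intact tissue came from operated rats, and from which brain region, is not given in the sources used here. A lesion-to-intact difference therefore cannot be told apart from a difference in region. Each number below that names a library is the sample number in the labels, and nothing in them says whether 2 libraries share an animal.

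After an infarct, the dead core of the brain is walled off by a fibrotic scar inside a rim of reactive astrocytes. The scar matrix is laid down by fibroblast-like cells of the vessel wall and the meninges, which are sparse in healthy brain tissue. Type I collagen is a triple helix of alpha 1 and alpha 2 chains and type III collagen a helix of a single kind of chain. Fibronectin forms the early matrix on which collagen fibrils assemble, decorin binds the fibrils and limits their diameter, and lysyl oxidase cross-links collagen and elastin. Alpha actin marks contractile cells, both myofibroblasts and the smooth muscle of vessels.

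Total counts per library ranged from 8883068 to 20420918 in intact brain and from 15290782 to 30601841 in lesions. Levels are given as CPM, counts divided by library size after TMM scaling, which evens out libraries on the assumption that most genes do not change. Levels are compared between libraries for 1 gene, not between genes, because transcript lengths were not used. In bulk tissue, fewer cells of a type and less RNA per cell cannot be told apart. Markers of fibroblasts, vessels, meninges and other cell types could not be read without gene names, so the tissue labels were not checked against markers and the part of cell composition in the results was not tested.

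The first comparison asked how the matrix genes differed between the lesion and intact brain. The fibrillar collagens rose most. *Col1a1* lay between 3.88 and 30.7 CPM, with a median of 13.7, in standard-diet intact brain and between 35.3 and 1014 CPM, with a median of 432, in lesions on that diet. The groups did not overlap: all 11 lesions exceeded every intact library. The fitted rise was 29.2-fold (log2 fold change 4.87, SE 0.62, edgeR adjusted p = 9.78e-07). *Col1a2* lay between 9.21 and 66.1 CPM (median 33.5) in intact brain and between 44.2 and 1668 CPM (median 699) in lesions, a 21.1-fold rise (log2 fold change 4.40, SE 0.65, edgeR adjusted p = 6.66e-06). Only lesion library 71 did not exceed the highest intact library for this chain. *Col3a1* lay between 8.08 and 39.6 CPM (median 19.8) in intact brain and between 39.8 and 3795 CPM (median 780.5) in lesions. Its rise was 49.8-fold (log2 fold change 5.64, SE 0.78, edgeR adjusted p = 2.78e-06), and only 32 of 15446 genes tested, itself included, had a fitted rise as large. Its groups met almost edge to edge, with the lowest lesion at 39.8 and the highest intact library at 39.6 CPM.

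With ketogenic feeding the collagens rose as well. The lesions covered a wider range, but there were 19 of them against 11, and the difference in spread was not tested. *Col1a1* lay between 2.86 and 25.0 CPM (median 14.1) in intact brain and between 36.3 and 2075 CPM (median 538) in lesions, with all 19 lesion libraries above the intact ones. The rise was 49.3-fold (log2 fold change 5.62, SE 0.84, edgeR adjusted p = 1.72e-06). *Col1a2* lay between 4.40 and 47.6 CPM (median 30.9) in intact brain and between 44.2 and 4086 CPM (median 660.4) in lesions, a 42.4-fold rise (log2 fold change 5.41, SE 0.92, edgeR adjusted p = 1.06e-05). Lesion library 31 alone lay within its intact range. *Col3a1* lay between 5.94 and 34.5 CPM (median 20.1) in intact brain and between 30.8 and 8170.4 CPM (median 923) in lesions, with libraries 31 and 27 within the intact range. Its fitted rise was 101-fold, with a 95% interval from 19.2 to 529 (log2 fold change 6.66, SE 1.17, edgeR adjusted p = 1.66e-05), and 25 of 15862 genes tested rose as much.

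Together the 3 collagen genes held a median of 0.00602% of all counts in standard-diet intact brain and 0.00566% with ketogenic feeding. In lesions the medians were 0.235% and 0.231%, and the shares ran from 0.0124% to 0.676% and from 0.0109% to 1.53%. The highest share was that of ketogenic lesion library 39, followed by library 5 at 1.421%. Counting error is small against these spreads: the fewest reads for a collagen in any lesion library were 667 (*Col1a1*, library 71), and in any intact library 37 (*Col1a1*, library 49).

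**Figure D1:**
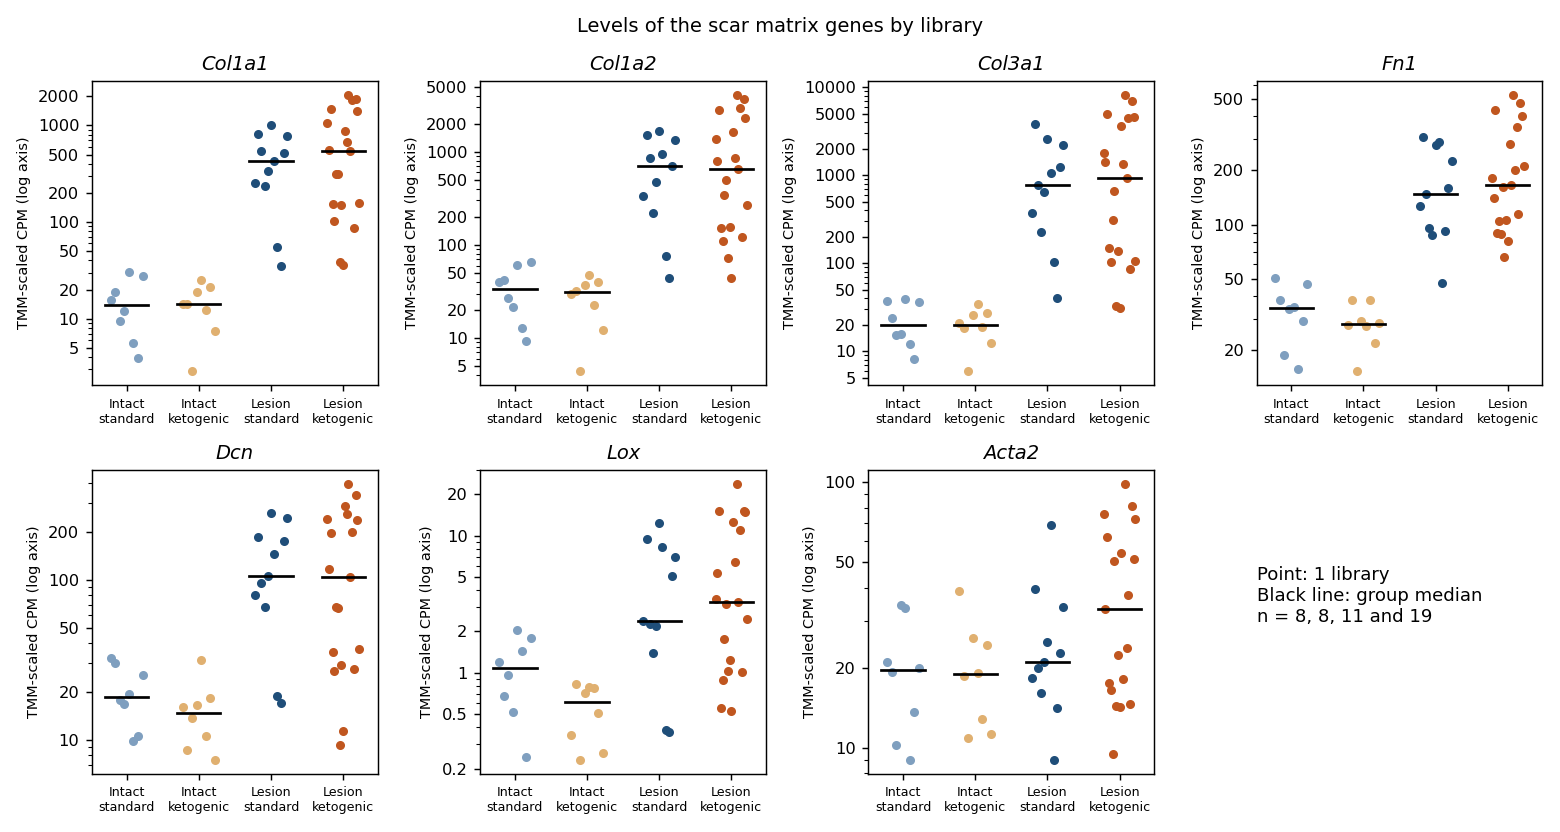
Level of each gene in every library, as TMM-scaled CPM on a log axis, for intact brain and lesions on both diets; each point is 1 library and each black line a group median. The collagen medians of the lesion groups lie far above the intact groups, from 13.7 to 432 CPM for Col1a1 on the standard diet, while those of Acta2 lie close, at 19.6 and 21.0 CPM.

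Fibronectin, decorin and lysyl oxidase also rose, by smaller folds. *Fn1* lay between 15.7 and 50.6 CPM (median 34.4) in standard-diet intact brain and between 47.0 and 306 CPM (median 148) in lesions, a 4.97-fold rise (log2 fold change 2.31, SE 0.34, edgeR adjusted p = 5.30e-06). Lesion library 70 was the only one within the intact range. Under ketogenic feeding it went from 15.3 to 37.9 CPM (median 28.0) up to 65.9 to 527 CPM (median 166), with 19 of 19 lesions above every intact library, and rose 7.73-fold (log2 fold change 2.95, SE 0.40, edgeR adjusted p = 4.34e-07). Among the 7 genes, *Fn1* and *Col1a1* were the ones whose groups stayed apart on the ketogenic diet.

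*Dcn*, the collagen-binding proteoglycan, lay between 9.84 and 32.3 CPM (median 18.5) in intact brain and between 17.01 and 261 CPM (median 106) in lesions on the standard diet. The rise was 6.17-fold (log2 fold change 2.62, SE 0.46, edgeR adjusted p = 4.30e-05), with lesion libraries 71 and 70 inside the intact range. On the ketogenic diet it went from 7.48 to 31.3 CPM (median 14.8) to between 9.23 and 399 CPM (median 104), a 9.13-fold rise (log2 fold change 3.19, SE 0.65, edgeR adjusted p = 0.000107). Here 5 of 19 lesions, libraries 27, 31, 21, 43 and 29, did not exceed the highest intact library, which was library 53 at 31.3 CPM against 18.2 in the next.

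*Lox*, the cross-linking enzyme, was the least abundant in reads, with 3 to 29 counts per intact library on the standard diet and 3 to 15 on the ketogenic diet, so its intact levels carry sizeable counting error. It lay between 0.24 and 2.06 CPM (median 1.08) in intact brain and between 0.37 and 12.4 CPM (median 2.40) in lesions on the standard diet, a 4.12-fold rise (log2 fold change 2.04, SE 0.60, edgeR adjusted p = 0.00483). Lesion libraries 71, 70 and 65 stayed within the intact range. With ketogenic feeding it lay between 0.23 and 0.83 CPM (median 0.61) in intact brain and between 0.53 and 24.0 CPM (median 3.28) in lesions, an 11.3-fold rise (log2 fold change 3.49, SE 0.75, edgeR adjusted p = 0.000201). Libraries 31 and 19 were the lesions not above the intact range.

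*Acta2*, the actin of myofibroblasts and vascular smooth muscle, changed least. On the standard diet it lay between 8.99 and 34.5 CPM (median 19.6) in intact brain and between 8.99 and 69.0 CPM (median 21.0) in lesions, so the groups overlapped almost entirely. Libraries 69 and 62 were the lesions above the intact range, at 69.0 and 39.8 CPM, and library 70 lay just under it. The fitted ratio was 1.29, with a 95% interval from 0.799 to 2.08 (log2 fold change 0.37, SE 0.33, edgeR adjusted p = 0.333), and did not pass. On the ketogenic diet it lay between 10.9 and 38.8 CPM (median 18.9) in intact brain and between 9.44 and 98.9 CPM (median 33.3) in lesions, with 8 of 19 lesions above the intact range. This 1.98-fold rise passed (log2 fold change 0.98, SE 0.40, edgeR adjusted p = 0.0301). Among the alternative fits it failed only with limma voom and quality weights (adjusted p = 0.138). It also did not pass without intact library 49, 55 or 59, where the edgeR adjusted p was 0.0618, 0.0584 and 0.0610.

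**Figure D2:**
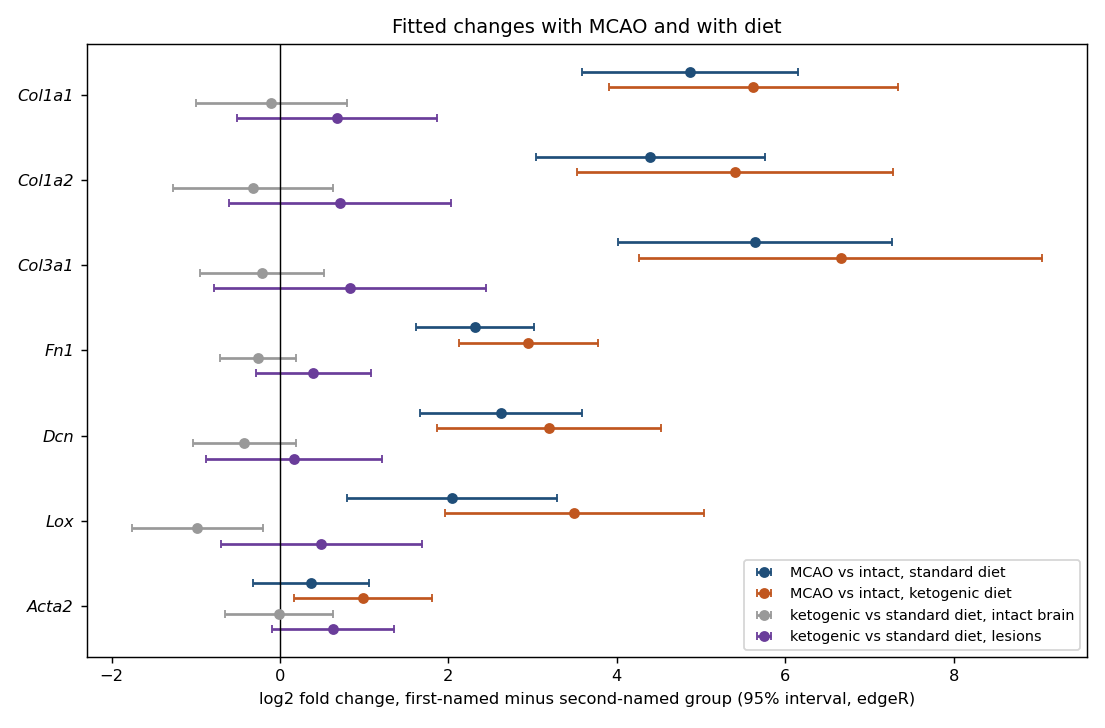
Fitted log2 fold change of each gene, first-named minus second-named group, with a 95% interval derived from the edgeR F statistic, for both MCAO comparisons and both diet comparisons. The collagens lie farthest to the right with MCAO, up to 6.66 for Col3a1 on the ketogenic diet, while every diet interval apart from that of Lox in intact brain includes 0.

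In all, 6 of 7 genes rose on the standard diet, where 68.4% of the genes tested were called, 34.3% higher and 34.1% lower. With ketogenic feeding 7 of 7 rose, where 69.1% were called, 35.2% higher and 33.9% lower. The median log2 fold change of the 7 was 2.62 and 3.49, beside -0.0061 and -0.0029 over all genes tested. Groups did not overlap, with lesions higher, for 2 of 7 genes on each diet (*Col1a1* and *Col3a1*, and *Col1a1* and *Fn1*), beside 11.8% and 7.50% of all genes. The list was put together with results of these data known, so these counts describe the list and are not independent evidence of its direction.

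The size of these rises differed between methods, and not in the same direction on both diets. With limma voom and quality weights, which changes both the scale of averaging and the weight of each library, the standard-diet log2 fold changes were 5.22 for *Col1a1*, 4.60 for *Col1a2*, 5.32 for *Col3a1*, 2.31 for *Fn1*, 2.69 for *Dcn*, 1.67 for *Lox* and 0.40 for *Acta2*, so that *Col1a1*, *Col1a2*, *Dcn* and *Acta2* lay above and *Col3a1* and *Lox* below their edgeR values. All 7 lay below them on the other diet, where the log2 fold changes were 4.80 for *Col1a1*, 4.34 for *Col1a2*, 4.99 for *Col3a1*, 2.56 for *Fn1*, 2.46 for *Dcn*, 2.41 for *Lox* and 0.56 for *Acta2*. With library totals in place of TMM the median gene moved up by 0.34 with standard and 0.25 with ketogenic feeding, and calls were higher in lesions in 76.6% and 69.1% of cases. The log2 fold change of *Acta2* was then 0.72 on the standard diet (adjusted p = 0.0650).

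Ratios of genes within a library do not depend on scaling, and they showed that the matrix genes rose by unequal amounts. The ratio of each gene's reads to those of *Col1a1* was compared between lesion and intact brain on both diets, 12 ratios in all, with two-sided exact permutation tests and Benjamini-Hochberg adjustment over the 12. A ratio to *Col1a1* falls for most genes, because few rose as much, and the share of all genes with such a fall was not computed. The partner chain *Col1a2* was among those whose ratio fell. Its ratio had a median of 2.34 in intact brain and 1.38 in lesions on the standard diet, a mean log2 difference of -0.63 (exact permutation p = 0.000251, adjusted p = 0.000335), with 9 of 11 lesions below the lowest intact library. On the ketogenic diet the medians were 1.87 and 1.46 (log2 difference -0.38, exact permutation p = 0.00658, adjusted p = 0.00790), with 10 of 19 lesions below the intact range. The ratio counts reads and not chains, since transcript lengths differ, but lengths cancel in the difference between groups.

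The ratio of type III to type I collagen reads did not pass the test on either diet, and lesions differed widely in it. The ratio of *Col3a1* to *Col1a1* reads had a median of 1.47 in intact brain and 1.90 in lesions on the standard diet (log2 difference 0.27, exact permutation p = 0.319, adjusted p = 0.347). It had medians of 1.44 and 1.72 on the ketogenic diet (log2 difference 0.18, exact permutation p = 0.586, adjusted p = 0.586). Lesions spread to both sides: on the ketogenic diet 8 of 19 lay above and 8 of 19 below the intact range, from 0.674 to 4.09 against 1.25 to 2.07 in intact brain. The SD of the log2 ratio was 0.88 in these lesions and 0.23 in intact brain.

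The other ratios fell in lesions on both diets. Only 59 of 15446 genes on the standard and 60 of 15862 on the ketogenic diet, *Col1a1* included, rose as much as *Col1a1*. A ratio to it therefore falls for most genes. The tests of falling ratios, those below and those of *Col1a2* above, largely restate its rise. The share of all genes with such a fall was not computed. *Acta2* reads went from a median of 1.22 per *Col1a1* read to 0.0616 on the standard diet, a log2 difference of -4.32 (exact permutation p = 1.32e-05, adjusted p = 2.65e-05), and from 1.35 to 0.0613 on the ketogenic diet, a difference of -4.17 (exact permutation p = 4.50e-07, adjusted p = 2.70e-06). All 30 lesions lay below the intact ranges. *Dcn* fell against *Col1a1* by 2.31 on the standard diet (exact permutation p = 1.32e-05, adjusted p = 2.65e-05) and by 2.37 with ketogenic feeding (exact permutation p = 4.50e-07, adjusted p = 2.70e-06) on the log2 scale, again with all lesions below the intact libraries. The log2 differences of *Lox* were -3.09 (exact permutation p = 1.32e-05, adjusted p = 2.65e-05) and -2.25 (exact permutation p = 9.01e-07, adjusted p = 3.60e-06), with 11 of 11 and 18 of 19 lesions below the intact range. Those of *Fn1* were -2.43 (exact permutation p = 0.000146, adjusted p = 0.000218) and -2.24 (exact permutation p = 6.94e-05, adjusted p = 0.000119), with 10 of 11 and 15 of 19 lesions below.

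**Figure D3:**
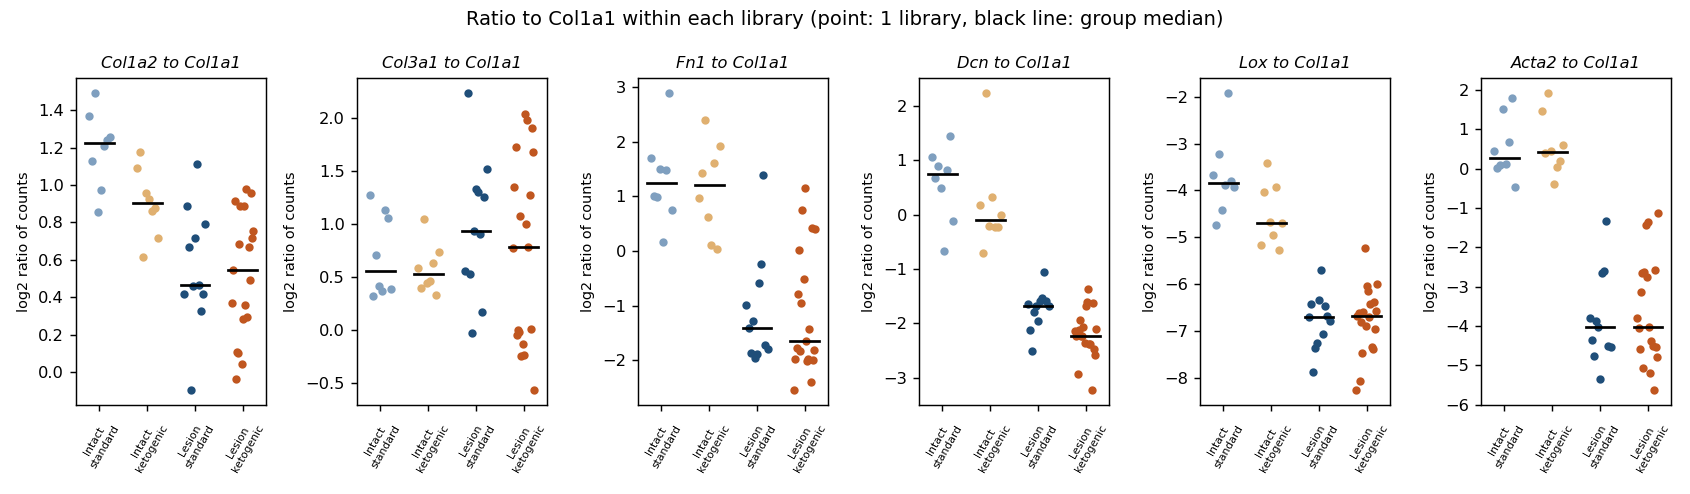
Log2 ratio of the reads of each gene to those of Col1a1 within each library, by group, with group medians as black lines. Acta2 and Dcn lie lower in every lesion than in any intact library of the same diet, whereas the Col3a1 ratio of lesions spreads to both sides of the intact libraries.

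The 30 lesions formed a continuous series from near-intact levels to very high ones. On the standard diet the highest lesion exceeded the lowest by 28.7-fold for *Col1a1*, 37.7-fold for *Col1a2*, 95.4-fold for *Col3a1*, 6.49-fold for *Fn1*, 15.3-fold for *Dcn*, 33.5-fold for *Lox* and 7.67-fold for *Acta2*. On the ketogenic diet the same ratios were 57.1, 92.4, 265, 8.003, 43.3, 45.3 and 10.5. A ratio of highest to lowest tends to grow with the number of libraries, here 19 against 11, and the difference in spread was not tested. *Col3a1* had the widest range on both diets. Its SD on the log2 scale was 2.03 in standard-diet and 2.70 in ketogenic lesions, against 0.84 and 0.78 in intact brain. Libraries 39 and 5, both on the ketogenic diet, ranked first and second of 30 for every gene except *Lox*, for which library 5 ranked 3. Libraries 71, 27 and 31 held the 3 lowest places for all 3 collagens and for *Dcn*.

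**Figure D4:**
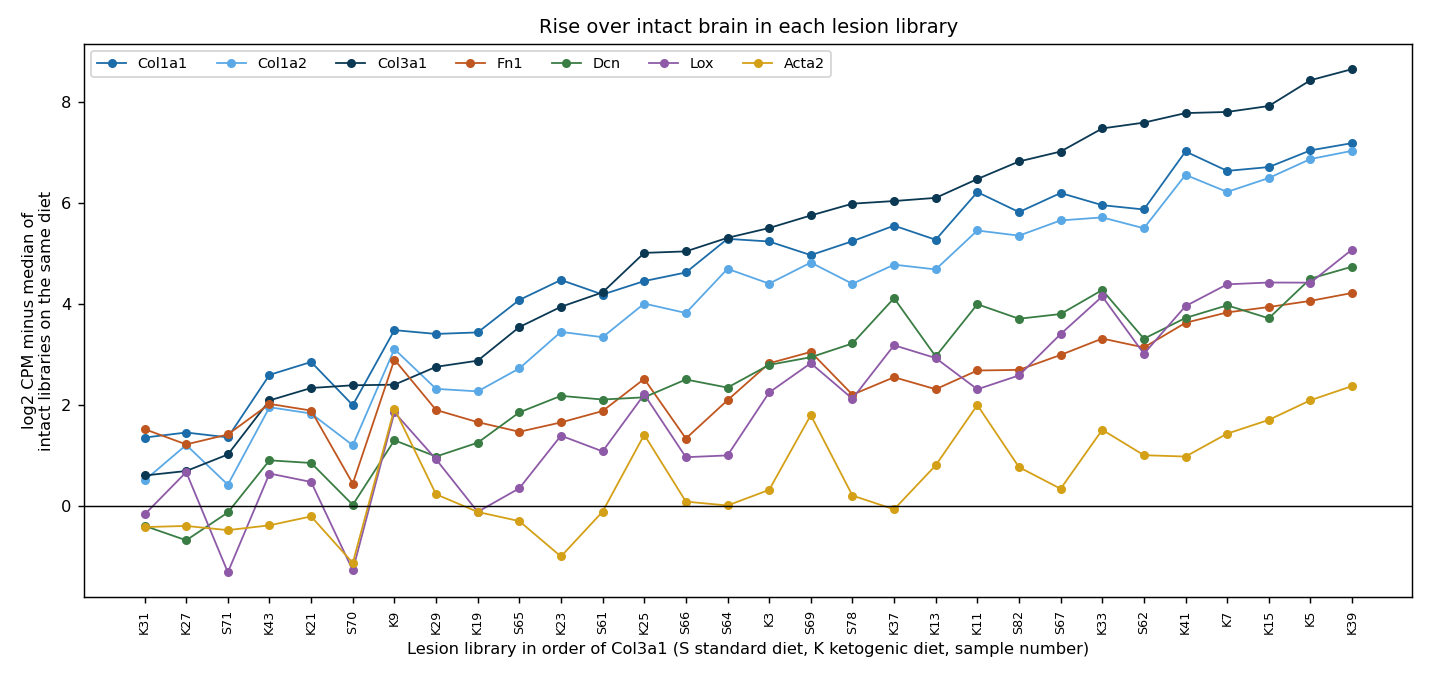
Level of each gene in each of the 30 lesion libraries, as log2 CPM minus the median of the intact libraries on the same diet, with libraries in order of Col3a1 (S, standard diet; K, ketogenic diet; sample number). The collagen lines climb together to between 7.04 and 8.66 in library 39, while the Acta2 line stays between -1.12 and 2.38 and departs from the order in libraries such as 9, 25 and 69.

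The genes went up and down together across lesions. Pearson's r of log2 CPM was computed for the 21 pairs of genes over the 30 lesion libraries. It was 0.989 for *Col1a1* with *Col1a2* (Spearman rho 0.986), 0.980 for *Col1a1* with *Col3a1* (rho 0.982) and 0.967 for *Col1a1* with *Dcn* (rho 0.947), and the permutation p was 1e-05 for each, the smallest possible from 100000 resamples. Every pair among the collagens and *Dcn* had an r of at least 0.957, and *Col1a2* with *Lox* one of 0.958. *Col1a1* with *Lox* had an r of 0.925 (rho 0.937, permutation p = 1e-05 for both) and *Col1a1* with *Fn1* an r of 0.859 (rho 0.861, permutation p = 1e-05 for both). *Acta2* followed the collagens least closely, with an r of 0.6998 with *Col1a1* (rho 0.770, permutation p = 2e-05 and 1e-05) and 0.662 with *Dcn* (rho 0.729, permutation p = 0.00013 and 3e-05), and followed *Fn1* more closely (r = 0.850, rho 0.877, permutation p = 1e-05 for both). All 21 pairs passed adjustment over the 21, and also within the standard-diet lesions, within the ketogenic lesions and without the 2 libraries farthest from the median. Sizeable correlations were common among all genes, however. Over 14681 genes in the 30 lesions, the median r regardless of sign was 0.606 with *Col1a1*, 0.636 with *Dcn* and 0.407 with *Acta2*. The share of all genes that would pass was not computed, so the passes alone do not set these pairs apart. For *Col1a1* with *Acta2* r was 0.689 on the standard diet, 0.710 on the ketogenic diet and 0.677 without the 2 farthest libraries; for *Col1a1* with *Col3a1* it was 0.968, 0.988 and 0.976.

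**Figure D5:**
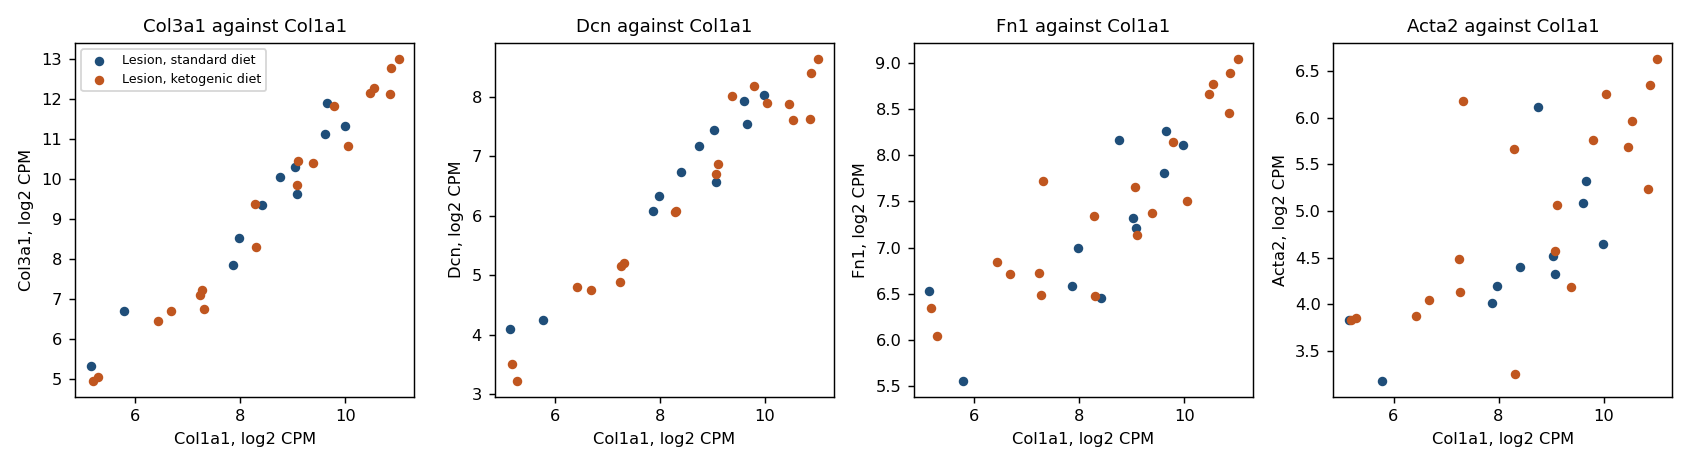
Log2 CPM of Col3a1, Dcn, Fn1 and Acta2 against that of Col1a1 across lesion libraries, coloured by diet. Col3a1 and Dcn lie close to a line (r = 0.980 and 0.967), and Acta2 scatters (r = 0.6998) with 3 libraries, 9, 25 and 69, high for their Col1a1 level.

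The levels were also set against how far each lesion library as a whole lay from intact brain. A library's axis position was taken as its projection on the mean difference between lesion and intact profiles, without the 7 genes. Its r across the 30 lesions was 0.926 for *Dcn* (rho 0.896), 0.903 for *Col1a1* (rho 0.892), 0.901 for *Col3a1* (rho 0.884), 0.883 for *Col1a2* (rho 0.886), 0.826 for *Lox* (rho 0.855) and 0.746 for *Fn1* (rho 0.748). The permutation p was 1e-05 for each of these, apart from 2e-05 for the rho of *Fn1*. For *Acta2* r was 0.552 (rho 0.626, permutation p = 0.00165 and 0.00033). Within diets these r ran from 0.669 for *Acta2* to 0.908 for *Col1a1* on the standard diet and from 0.531 for *Acta2* to 0.939 for *Dcn* on the ketogenic diet. The axis was built from these same libraries, so genes that rise strongly in lesions tend to follow it by construction. The p-values are therefore not independent evidence, and the share of all genes with such an r with the axis was not computed. Many other genes vary with the collagens: of 14681 genes whose lesion mean reached 1 CPM, 2.94% had an r of at least 0.9 with *Col1a1* and 17.6% one of at least 0.7. For *Acta2* these shares were 0.0613% and 5.42%.

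Library size had negative correlations with the levels. Its r with log2 CPM over the 30 lesions was -0.539 for *Dcn* (permutation p = 0.00219, adjusted p = 0.0153 over 7). The r was between -0.464 and -0.380 for the collagens, *Lox* and *Fn1*, which passed as well (permutation test, adjusted p from 0.0331 to 0.0439). For *Acta2* it was -0.138 (permutation p = 0.468, adjusted p = 0.468). No rank correlation passed adjustment (for *Dcn* rho was -0.451, adjusted p = 0.0909), and without the 2 libraries farthest from the median size r was -0.392 for *Dcn*, between -0.321 and -0.291 for the collagens, -0.271 for *Lox*, -0.232 for *Fn1* and 0.0067 for *Acta2*. Within diets it was -0.146 in standard-diet and -0.551 in ketogenic lesions for *Col1a1*, -0.222 and -0.619 for *Dcn*, -0.391 and -0.461 for *Fn1* and -0.217 and -0.204 for *Acta2*. The part of depth in the results was not tested.

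By the mean r with the 7 genes across the 30 lesions, the genes most like them were ENSRNOG00000003144 (mean r = 0.937, from 0.837 to 0.977 over the 7) and ENSRNOG00000014644 (mean r = 0.936, from 0.803 to 0.983). The first had a median of 13.7 CPM in lesions, from 2.84 to 52.1, and of 4.33 CPM in intact brain. The second had a median of 38.4 CPM in lesions, from 8.48 to 161, and of 6.32 CPM in intact brain. No table at hand pairs these IDs with names.

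RefSeq promoter windows, from 250 bases before the annotated start to 50 after it, were at hand for only 2 of the 7 genes, *Col1a2* and *Acta2*. They are shown 5′ to 3′ on the gene's strand, with capitals marking matches to 4 motifs searched on both strands: the TATA box (TATAAA), the CCAAT box (CCAAT), the core of the SMAD box bound by mediators of TGF-beta signalling (CAGAC), and the CArG box of serum response factor, either exact or with 1 of the A or T bases of its core replaced by G or C. The build is GRCr8, which is not that of the counts; *Col1a2* is at chr4:33518307-33518606 on the plus strand and *Acta2* at chr1:241172454-241172753 on the minus strand.
Col1a2: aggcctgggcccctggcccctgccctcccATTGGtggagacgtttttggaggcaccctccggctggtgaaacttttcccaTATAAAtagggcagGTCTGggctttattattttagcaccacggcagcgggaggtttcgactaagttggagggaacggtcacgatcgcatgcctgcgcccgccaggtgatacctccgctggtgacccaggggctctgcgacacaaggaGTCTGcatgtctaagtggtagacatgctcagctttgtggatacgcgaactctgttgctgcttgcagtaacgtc
Acta2: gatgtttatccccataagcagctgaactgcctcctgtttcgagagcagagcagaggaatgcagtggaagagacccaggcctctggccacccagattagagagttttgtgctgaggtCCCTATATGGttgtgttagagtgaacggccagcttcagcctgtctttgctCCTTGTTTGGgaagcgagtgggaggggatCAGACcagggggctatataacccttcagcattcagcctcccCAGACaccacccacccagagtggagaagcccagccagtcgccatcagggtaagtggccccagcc

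The *Col1a2* window held a TATAAA match from 170 to 165 bases before the annotated start, a CCAAT box on the reverse strand and 2 SMAD cores on the reverse strand. Only the exact letters TATAAA were searched, so other forms of the TATA box are not marked in either window. The *Acta2* window held 2 CArG boxes with a single G or C in the core, CCCTATATGG and CCTTGTTTGG, starting 134 and 84 bases before the annotated start, and 2 SMAD cores on the forward strand. Of all 33469 RefSeq promoter windows of this length, 14.2% held the TATA box, 37.5% the CCAAT box, 50.1% the SMAD core, 1.64% an exact CArG box and 8.1% one with a single G or C. No 2 of the matches shown overlapped, and they describe the sequence and not binding in this tissue.

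The diet comparisons asked whether ketogenic feeding moved the matrix genes without or with a lesion. In intact brain 0 of 7 passed, as did 0 of all 14746 genes tested (0% called by edgeR, with 14.8% at an unadjusted p under 0.05, and 274 genes called by DESeq2). Means on the ketogenic and standard diet were 14.5 ± 7.26 and 15.5 ± 9.82 CPM (SD, n = 8 each) for *Col1a1*, and 28.2 ± 7.51 and 33.5 ± 12.2 CPM for *Fn1*. *Acta2* stood at 20.2 ± 9.42 and 20.1 ± 9.63 CPM. The lowest p belonged to *Lox*, at 0.56 ± 0.25 on the ketogenic and 1.11 ± 0.63 CPM on the standard diet. Its log2 fold change of -0.98 (SE 0.37) had an unadjusted p of 0.0156 and an edgeR adjusted p of 0.227, and rests on a few reads per library.

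In lesions 0 of 7 genes passed either, beside 0.741% of genes called by edgeR, 0.463% higher and 0.279% lower with ketogenic feeding (13.4% at an unadjusted p under 0.05). The fitted mean of each of the 7 was higher on the ketogenic diet, as it was for 54.8% of all genes tested, but the intervals were wide. Because the 7 went up and down together across lesions, they are not 7 separate observations. *Col1a1* was 456 ± 316 CPM (SD, n = 11) in standard-diet and 725 ± 697 CPM (SD, n = 19) in ketogenic lesions, a ratio of 1.60 with a 95% interval from 0.705 to 3.63 (edgeR adjusted p = 0.708). For *Col3a1* the means were 1186 ± 1195 CPM in standard-diet and 2096 ± 2571 CPM in ketogenic lesions, a ratio of 1.78 with an interval from 0.583 to 5.43 (edgeR adjusted p = 0.754). The medians lay closer, at 780.5 and 923 CPM in the same order. Medians were lower on the ketogenic diet for *Col1a2* (699 CPM standard, 660.4 ketogenic) and *Dcn* (106 and 104 CPM), and higher for the other genes. *Dcn* had the smallest ratio, 1.12 (interval 0.543 to 2.31, edgeR adjusted p = 0.943), and *Fn1* the narrowest interval, 0.820 to 2.12 around 1.32 (edgeR adjusted p = 0.701). *Acta2*, at 26.2 ± 16.6 CPM in standard-diet and 40.5 ± 27.4 CPM in ketogenic lesions, had the smallest p, with a ratio of 1.55 (interval 0.937 to 2.56, unadjusted p = 0.0855, edgeR adjusted p = 0.462). With this spread between lesions, differences between diets anywhere within these intervals, higher or lower, were not excluded. The direction itself depended on the method. With limma voom and quality weights the log2 fold change was -0.11 for *Col1a2*, -0.14 for *Col3a1* and -0.34 for *Dcn*. A fit with the axis position as a covariate, chosen after seeing the data, asks another question: the diet difference between lesions at equal position. That position itself followed *Col3a1* (r = 0.901) and *Dcn* (r = 0.926) across lesions. In that fit the log2 fold change was -0.11 for *Col3a1* and -0.29 for *Dcn*.

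The interaction of diet and MCAO, which tests whether the lesion response itself differed between diets, passed for 0 of 7 genes and for 0 of 16140 genes in edgeR (0% called, with 4.45% at an unadjusted p under 0.05; DESeq2 called 2 genes and limma voom with quality weights 13). The MCAO call of *Acta2* on the ketogenic diet alone therefore does not show a difference between diets: its log2 interaction was 0.62 (95% interval -0.46 to 1.70, edgeR adjusted p = 0.99994). The largest log2 interaction was that of *Lox*, 1.45 (interval -0.45 to 3.36, unadjusted p = 0.131), for which the rise was 11.3-fold on the ketogenic and 4.12-fold on the standard diet and whose intact mean was lower on the ketogenic diet by the margin given above. For *Col1a1* the interaction was 0.76 (interval -0.95 to 2.47), for *Col3a1* 1.02 (-1.18 to 3.22) and for *Fn1* 0.64 (-0.35 to 1.62).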

How the data were processed

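PolyA RNA libraries of 46 samples were made with a directional kit, per the labels' protocols. The authors deposited raw counts per Ensembl gene ID, with no normalization. The submitters' processing notes name HISAT2 2.0.5, HTSeq 0.7.2, Cufflinks, DESeq2 1.42.0 and the build mRatBN7.2; annotation release and strand setting are not given in the sources used here. Whether counting separated overlapping antisense genes is therefore unknown. The series-wide table matched the per-sample files (0 cells differing), and its 39 columns of other samples were not used. No libraries of a group agreed within sampling noise (smallest chi-square per degree of freedom 12.2).

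Counts were fitted for all genes with edgeR 4.0.16 in R 4.3.3 (TMM, filterByExpr, robust quasi-likelihood F test, Benjamini-Hochberg adjustment, threshold 0.05), each MCAO and diet comparison on its own 2 groups and the interaction on all 46 libraries. The fit was tested on simulated data in which few genes changed. It was not tested where most genes change, as with MCAO, where 68.4% and 69.1% were called. The interaction was not held to the same limit on the share of changed genes recovered. Log2 CPM used a prior count of 2, and ratios added 0.5 counts per gene. Alternatives were DESeq2 1.42.0, limma 3.58.1 voom with quality weights, RLE scaling, library totals, other low-count filters, 1 joint fit of the 46 libraries, dropping single libraries, and 2 counts added to ratios. Correlation p-values came from 100000 resamples and cover the spread between libraries, which may be technical. The 7 genes and the lists were chosen with earlier results of these data known; lists of other collagens, collagen processing, other matrix proteins, TGF-beta, PDGF, contractile genes, matrix receptors and cell type markers needed gene names and were not analysed here. By the rule for named genes, all 7 were named in each comparison, with the 2 genes of highest mean r.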

Additional observations from a re-analysis of the deposited data

Results flagged for a closer look

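Among 26 checks of whether 1 library stood apart in an intact group of 8, 2 did so for *Dcn* on the ketogenic diet; chance gives about 1 in 20. The level of *Dcn* in intact library 53 was 31.3 CPM, against 18.2 CPM in the next of its group. The log2 ratio of *Dcn* to *Col1a1* reads in intact library 49 was 2.23, against 0.32 in the next; that library also had the lowest *Col1a1* level of its group, at 2.86 CPM.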

How the results depend on the processing

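The rises of *Col1a1*, *Col1a2*, *Col3a1*, *Fn1*, *Dcn* and *Lox* with MCAO kept their direction and their call on both diets under each alternative fit and without each library in turn. The number of the 7 genes called ran from 6 to 6 on the standard and from 6 to 7 on the ketogenic diet when 1 library was left out, and *Acta2* on the ketogenic diet accounts for the change; its log2 fold change ran from 0.87 to 1.18 without single libraries. For both diet comparisons that number was 0 throughout. Signs of uncalled values turned under some settings. For diet in intact brain, *Acta2* was 0.056 with library totals, 0.12 with limma voom and 0.0028 in 1 fit over all libraries, and limma voom gave 0.37 for *Col1a1*, 0.10 for *Col1a2* and 0.16 for *Col3a1*; without single libraries *Acta2* ran from -0.21 to 0.14 and *Col1a1* from -0.26 to 0.11. For diet in lesions, limma voom gave -0.11 for *Col1a2*, -0.14 for *Col3a1* and -0.34 for *Dcn*. The fit with the axis position as covariate, which asks another question, gave -0.11 for *Col3a1* and -0.29 for *Dcn*. For the interaction, limma voom gave -0.39 for *Col1a1*, -0.23 for *Col1a2*, -0.31 for *Col3a1* and -0.21 for *Dcn*. The cause was not tested. The number of all genes called for diet in intact brain was 274 with DESeq2 and 63 in 1 fit over all libraries, against 0. In lesions it was 502 with DESeq2, 183 with library totals (33.3% higher, against 62.4% of 117), 21 without a low-count filter, 933 with limma voom and 77 in 1 fit. The fit with the axis position as covariate, which is not a processing setting, called 1692. For the interaction the number of all genes called was 2 with DESeq2 and 13 with limma voom, against 0. For diet in intact brain, *Lox* gave no value with a minimum mean of 1 CPM, and DESeq2 gave it no adjusted p. Adding 2 counts to ratios and scaling correlations by library totals changed no call. No paired analysis was possible because the labels do not say which libraries, if any, share an animal. Depth limits *Lox* most, with as few as 3 reads in an intact library.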
